A study of Danio rerio with 6 samples.

Results

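Whole zebrafish embryos that had received a morpholino against the estrogen receptor ERbeta2 were compared with embryos that had not been injected. The comparison was chosen by the array titles and uses 4 of the 6 arrays of the study, 2 of ERbeta2 MO embryos and 2 of uninjected embryos. The title of the series asks what ERbeta2 does in forming neuromasts, clusters of hair cells along the fish's lateral line. ERbeta2 MO embryos were injected up to the 4-cell stage with 50 uM of a morpholino designed to block translation of ERbeta2, and uninjected embryos received neither morpholino nor injection. A further group, coMO, received a standard control morpholino at the same 50 uM, and its 2 arrays are given beside the others. All embryos came from eggs pooled over several aquaria, were raised at 28 °C and were taken at 72 h after fertilization. No strain, transgene or mutant allele is given in the labels. The replicates are called biological in their titles, but no label ties them to different clutches, so the p-values rest on a spread between samples that may be technical.

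A morpholino is a synthetic antisense oligonucleotide that binds an RNA and, placed over the start of the coding sequence, keeps ribosomes from translating it. Since such a block need not remove the mRNA, array signals are no check of it, and the targeted gene was not analysed here. Comparison with uninjected embryos holds the injection, the presence of any morpholino and the ERbeta2 sequence together. Injected zebrafish embryos are known for stress responses that do not depend on the intended target, among them activation of the p53 pathway, and cells under stress commonly raise chaperones, ATF and AP-1 transcription factors and antioxidant enzymes. For that reason 9 lists of stress genes are described first, with the level in uninjected, coMO and ERbeta2 MO embryos, and other gene groups after them.

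Arrays of the same group correlated at r = 0.9752 to 0.987 over all probe sets, uninjected with coMO arrays at 0.971 to 0.979, and ERbeta2 MO with uninjected arrays at 0.900 to 0.907. Probe sets are not independent replicates. The arrays also differed on their own controls. The 3' to 5' signal ratio of GAPDH, which goes up when RNA is degraded or incompletely labelled, was 2.14 and 2.15 on the ERbeta2 MO arrays, 1.66 and 1.34 on the coMO arrays and 1.47 and 1.35 on the uninjected arrays. That of the muscle actin acta1 was 13.6 and 11.6, 7.64 and 5.72, and 5.41 and 10.04 in the same order. The poly-A spikes, RNAs added before labelling, had a mean log2 signal of 6.77 ± 0.201 in ERbeta2 MO, 7.33 ± 0.163 in uninjected and 7.71 ± 0.251 in coMO embryos (SD, n = 2 each). For the hybridization controls it was 11.38 ± 0.095 in ERbeta2 MO and 11.79 ± 0.147 in uninjected embryos (SD, n = 2 each), and 11.76 on each coMO array. An exact permutation test of 2 against 2 arrays cannot give a two-sided p below 0.333. Between ERbeta2 MO and uninjected embryos the GAPDH and acta1 ratios and the mean spike and hybridization control levels gave that value. The 3' to 5' ratio of the dap spike ran the other way, at 4.28 ± 0.584 in ERbeta2 MO and 4.65 ± 0.815 in uninjected embryos (SD, n = 2 each; exact permutation p = 0.667). The part of the GAPDH, acta1, spike level and hybridization control differences in the results was not tested.

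Against uninjected embryos, the lists with the lowest median differences in ERbeta2 MO embryos were those of photoreceptors, exocrine pancreas and intestine, while signals were higher for ribosome assembly genes, tRNA synthetases and ATF transcription factors. Of 9302 probe sets tested in limma, 5295 (56.9%) passed an adjusted p of 0.05. The calls comprised 2827 higher (30.4%) and 2468 lower (26.5%). Of all tested probe sets 61.7% had an unadjusted p under 0.05, and for 78.9% the 4 arrays did not overlap. Calls of at least 2-fold numbered 784 upward (8.43%) and 885 downward (9.51%), and those of at least 8-fold 7 (0.0753%) and 119 (1.28%). Probe sets were kept for testing by their mean over all 6 arrays. At like levels, one low only in ERbeta2 MO embryos was thus kept more easily than one high only there, which bears on these counts. For coMO against uninjected embryos the same fit called 47 probe sets (0.505%), and 734 (7.89%) had an unadjusted p under 0.05. For ERbeta2 MO against coMO it called 56.2%. Each pair of these comparisons shares arrays.

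The share of calls that were higher depended on scaling and on the filter. It was 53.4% as deposited and 52.8% with quantile normalization, but 63.98% with each array centred on its median, 80.2% after scaling to the hybridization controls and 86.6% after scaling to the poly-A spikes. The median log2 difference of all tested probe sets was 0.05 as deposited and 0.18, 0.44 and 0.59 under the last 3 scalings, so every change given here is relative to the scaling of the deposited signals. These shares leave out the dimmest 40% of probe sets. With those kept and signals as deposited, most calls were lower: 2918 were higher (47.4%) and 3239 lower.

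**Figure D1:**
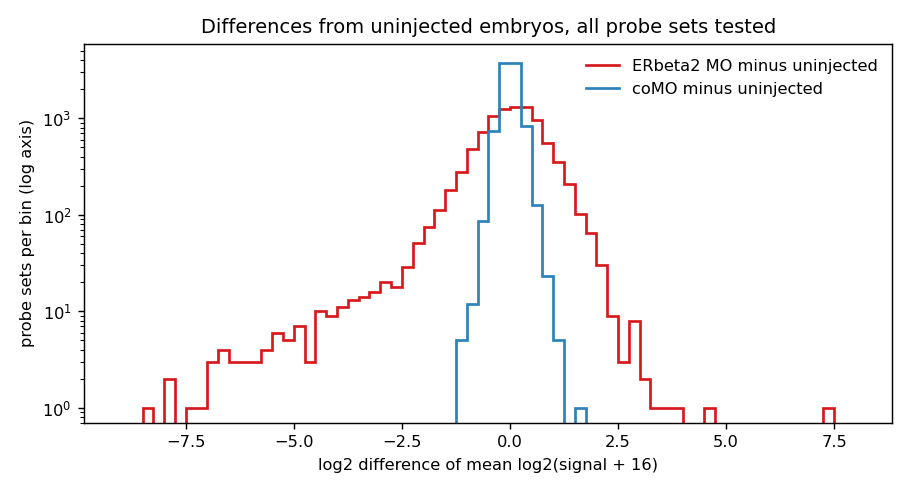
Number of probe sets (log axis) in each bin of the log2 difference from uninjected embryos, for ERbeta2 MO (red) and coMO (blue), over the 9302 probe sets tested. The coMO differences lie between -1.16 and 1.58, and those of ERbeta2 MO between -8.45 and 7.29, with a longer tail on the lower side. Probe sets were kept by their mean over all 6 arrays, which favours those low only in ERbeta2 MO embryos over those high only there.

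Gene names exist here only for probe sets in the authors' deposited tables, which list differences of at least 2-fold on these same arrays. Of the 1382 named genes tested, 98.1% passed in this comparison, 749 higher (54.2%) and 607 lower (43.9%), with a median log2 difference of 0.62. Counts of list members called are therefore close to all named members by construction and are read only for their direction. The share of named genes called was 1.01% for coMO against uninjected embryos and 97.0% for ERbeta2 MO against coMO. A list's members do not show how many of its unnamed genes changed. The same selection enlarges the list medians, since genes with smaller differences are mostly unnamed. A median therefore describes the named members and does not size the change of a whole list.

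The rises were led by the embryonic beta globin hbbe3. Its signal was 4445 and 5168 in ERbeta2 MO, 14.4 and 14.9 in uninjected and 21.7 and 43.3 in coMO embryos. The control signals lie near the offset of 16 added before taking logs, so the size of the change depends on that offset. The mean over all arrays, by which hbbe3 was kept for testing, rests on its ERbeta2 MO signals. The matrix metalloproteinase mmp9 had 4090.2 and 3913 in ERbeta2 MO, 174 and 142 in uninjected and 138 in each coMO array, a log2 difference of 4.54 ± 0.16 (SE) from uninjected embryos (limma adjusted p = 6.31e-16). Both ERbeta2 MO arrays stood far above the other 4, among which coMO was the lower group. Other large rises were those of mmp13a, a collagenase (log2 3.79), timp2b, a metalloproteinase inhibitor (3.74 and 3.1 on its 2 probe sets), gtpbp1, a GTP-binding protein (2.91), odc1, the first enzyme of polyamine synthesis (2.86), slc4a1a, which exchanges anions across the red cell membrane (2.85), and the ATF family gene atf5b (2.79).

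The falls were led by the green cone opsin opn1mw1, with 20.9 and 38 in ERbeta2 MO, 14128 and 17311 in uninjected and 13042 and 13322 in coMO embryos. The complement gene c3a.6 had 82.6 and 87.3 in ERbeta2 MO against 14944 and 17726 in uninjected and 13637 and 16269 in coMO embryos (log2 -7.33 ± 0.13, SE; limma adjusted p = 7.52e-21). In whole embryos, fewer cells of a type and less RNA per cell cannot be told apart. The elastase gene ela2 of the exocrine pancreas (26.4 and 21 against 3853 and 4192) and the liver fatty acid binding protein gene fabp10a (21.3 and 12 against 1998 and 2618) came close to the offset, so the sizes of their falls depend on it. All of these falls were present on both ERbeta2 MO arrays.

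**Figure D2:**
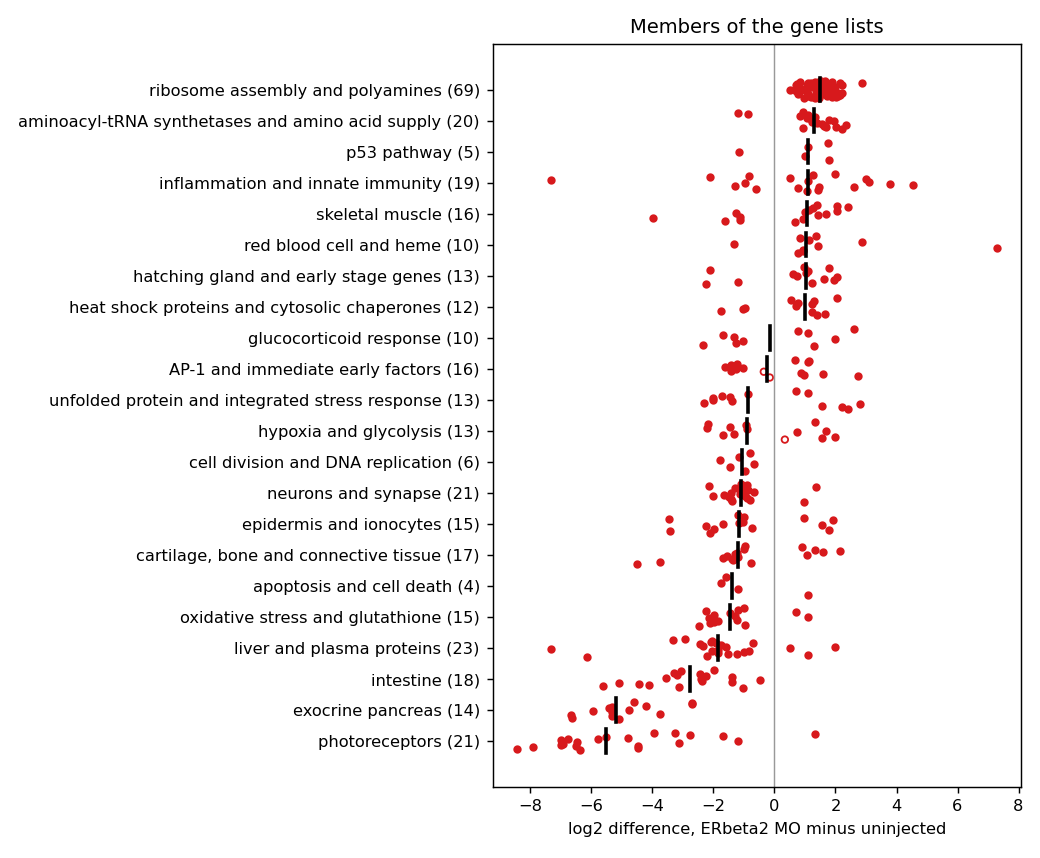
Log2 difference between ERbeta2 MO and uninjected embryos for the tested members of the 22 gene lists, with the number tested in brackets. Filled points passed an adjusted p of 0.05, open points did not, and the black bar is the list's median. Ribosome assembly members all lie to the right of 0, exocrine pancreas and intestine members all to the left, and most stress lists hold members on both sides.

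Of 543 genes on the 9 stress lists, 113 were named and 100 tested. Of these, 46 were higher and 51 lower in ERbeta2 MO than in uninjected embryos. Of all named genes 54.2% were higher and 43.9% lower, so members on both sides are not particular to stress genes. The counts of each list below are to be read beside those shares.

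The unfolded protein and integrated stress response list was split in direction. In this response phosphorylation of the initiation factor eIF2 slows translation while the transcription factor ATF4 is made, and a separate branch raises the chaperones of the endoplasmic reticulum. Of 13 members tested, 6 rose and 7 fell, with a median log2 of -0.86. The genes that rose were the transcription factors atf5b, atf3, atf4a, atf4b and cebpb and the eIF2 kinase gene eif2ak1. The ATF4 gene atf4a had 8495 and 8925 in ERbeta2 MO, 2064 and 2393 in coMO and 1778 and 1962 in uninjected embryos (log2 2.21 ± 0.13, SE; limma adjusted p = 3.12e-12). The stress-induced factor atf3 had 1524 and 1590.2, 288 and 216, and 316 and 251 in the same order. For each of these genes both ERbeta2 MO signals stood above the other 4.

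The genes that fell were mostly chaperones and folding enzymes of the endoplasmic reticulum. The chaperone gene hsp90b1 had 521 and 504 in ERbeta2 MO, 2294 and 3181 in coMO and 2440.0 and 2724 in uninjected embryos (log2 -2.30 ± 0.15, SE; limma adjusted p = 3.18e-11). The calreticulin genes calr3b (log2 -2.02) and calr3a (-2.00), the co-chaperone dnajc3a (-1.71), the disulfide isomerase pdia4 (-1.46) and the amino acid transporter subunit slc3a2a (-0.86) fell too, and the call for slc3a2a ended with the poly-A scaling (adjusted p = 0.355). For calr the probe sets disagreed, at log2 -1.95, -1.39 and 1.29, each past the threshold, so no direction is given for that gene, and the list's count holds the brightest probe set. Between coMO and uninjected embryos the differences of these 13 genes were small, from log2 -0.33 for cebpb to 0.31 for atf5b.

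**Figure D3:**
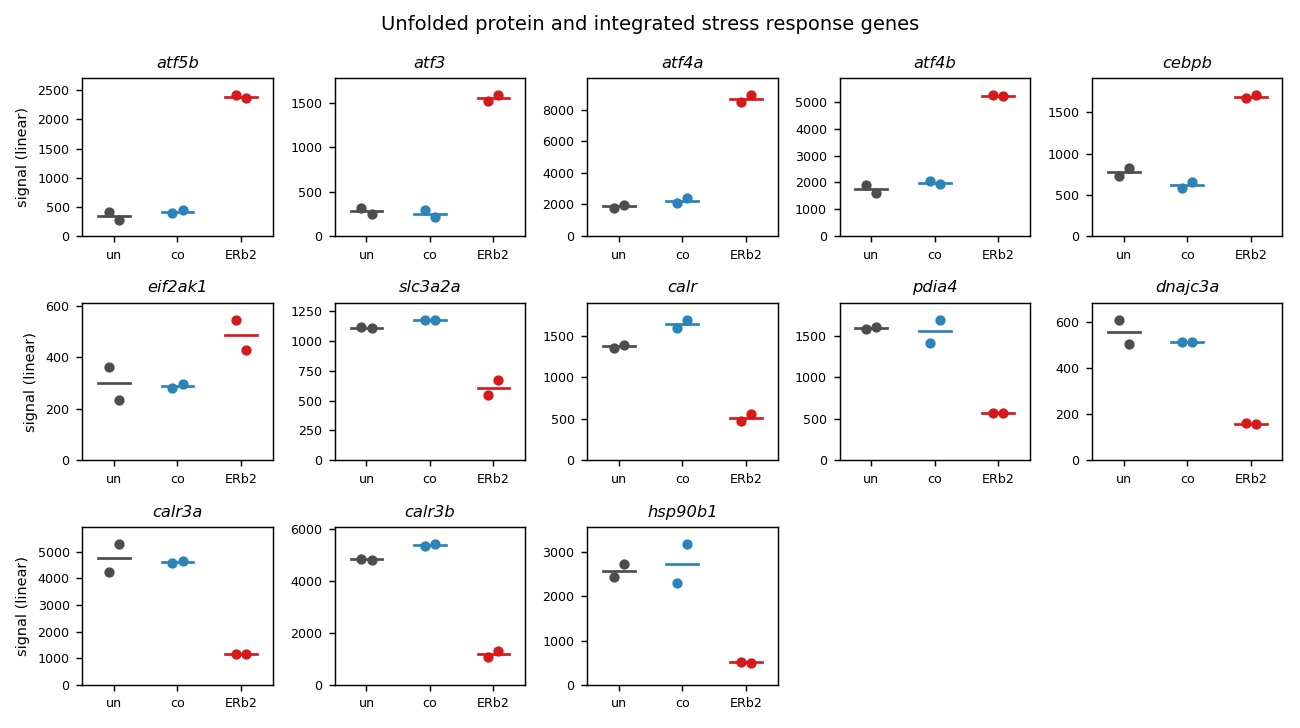
Signal on a linear scale of the 13 tested genes of the unfolded protein and integrated stress response list in uninjected (un, grey), coMO (co, blue) and ERbeta2 MO (ERb2, red) embryos. Points are arrays, bars are means of 2. The factors atf5b, atf3, atf4a and atf4b are highest on the ERbeta2 MO arrays, and hsp90b1, calr3a, calr3b, pdia4 and dnajc3a are low there.

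Among heat shock proteins and cytosolic chaperones 9 of 12 members rose and 3 fell, with a median log2 of 1.00. The myosin chaperone unc45b had 1368 and 1273 in ERbeta2 MO, 458 and 311 in coMO and 341 and 274 in uninjected embryos (log2 2.05 ± 0.18, SE; limma adjusted p = 3.5e-09). The small heat shock protein genes hspb8 (log2 1.66 on its brighter probe set and 2.81 on the other) and hspb1 (1.4), the inducible hsp70.3 (1.23), the Hsp40 gene dnaja2a (1.22), the mitochondrial hspa9 (0.69) and the chaperonin subunit cct3 (0.55) rose. hsp70.3 had 624 and 611 in ERbeta2 MO against 223 and 288 in uninjected and 253 and 249 in coMO embryos. The genes that fell were hspa4l (log2 -1.75), hspa8b (-1.04) and hsp90aa1.2 (-0.95), and with the poly-A scaling 1 of the 3 still passed as lower.

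The AP-1 and immediate early list, transcription factors and signalling inhibitors that respond within minutes to growth factors or injury, gave 7 higher, 7 lower and 2 not called of 16. The AP-1 subunit genes fosl2 (log2 2.73, and 1.93 and 1.65 on further probe sets), junbb (1.59), junba (0.97) and jun (0.86) rose. junbb had 3006 and 3251 in ERbeta2 MO, 707 and 798 in coMO and 956 and 1105 in uninjected embryos, so the coMO signals lay lowest. The phosphatase gene dusp2 (log2 -1.62), the zinc finger factors egr1 (-1.44), klf2b (-1.41) and klf2a (-1.24), and ier2b (-1.26) fell. egr1 had 111 and 103 in ERbeta2 MO, 188 and 196 in coMO and 311 and 324 in uninjected embryos.

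In the immediate early list the coMO mean lay below the uninjected mean for 15 of the 16 genes, of which 1 was called and 7 had an unadjusted p under 0.05 (limma). Of all probe sets tested 7.89% had such a p, and the like shares of named genes were not computed. The 16 genes were read on the same arrays and are not independent observations. The median log2 of coMO against uninjected embryos was -0.27 in the list and 0.003 over all named genes. For ERbeta2 MO the list's median log2 was -0.25 against uninjected and 0.58 against coMO embryos. Against uninjected embryos that median was 0.15 after scaling to the hybridization controls and 0.30 after scaling to the poly-A spikes. fosab, the c-Fos gene, was the member called. Its brightest probe set had 1277 and 1282 in ERbeta2 MO, 1517 and 1338 in uninjected and 696 and 717 in coMO embryos. ERbeta2 MO differed from uninjected embryos by a log2 of -0.15 (adjusted p = 0.35, limma) and from coMO by 0.84 (2.35e-05), while coMO lay below uninjected embryos (log2 -1.0, adjusted p = 0.00128, limma). The other 3 probe sets of fosab gave -0.05, -0.62 and -0.79 against uninjected embryos. Those at -0.62 (adjusted p = 0.00359, limma) and -0.79 (0.000259) passed as lower. Against coMO the same probe sets gave 0.53, 0.30 and -0.12, and only that at 0.53 passed (0.00719). The probe sets thus disagreed, so no direction is given for fosab against uninjected embryos. The macrophage and skin gene irg1l was also lower in coMO than in uninjected embryos (log2 -0.85, adjusted p = 0.00374, limma), with 884 and 1007 there, 1925 and 1522 in uninjected and 4457 and 4735 in ERbeta2 MO embryos, which is a log2 of 1.42 against uninjected and 2.26 against coMO embryos.

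Of the p53 pathway list 10 members were named and 5 tested. The rises were those of mdm2, the ubiquitin ligase that limits p53, phlda3, an inhibitor of Akt signalling, baxa, a promoter of mitochondrial cell death, and the cyclin G gene ccng1. mdm2 had 1122 and 1040.1 in ERbeta2 MO, 346 and 426 in coMO and 293 and 313 in uninjected embryos (log2 1.78 ± 0.16, SE; limma adjusted p = 5.96e-09). The values of phlda3, baxa and ccng1 were log2 1.74, 1.1 and 1.0, and ccng2 fell, at log2 -1.17 and -1.50 on its 2 probe sets, with the call of the brighter ended by the poly-A scaling (adjusted p = 0.0524). Of 4 apoptosis genes tested, baxa was higher and aifm1 (log2 -1.76), pdcd4a (-1.60) and diabloa (-1.18) were lower.

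Genes of the oxidative stress and glutathione list were mostly lower, 13 of 15, with a median log2 of -1.46, and 11 of 15 with the poly-A scaling. The master regulator of the antioxidant response, nfe2l2a, had 60.3 and 53.7 in ERbeta2 MO, 350.0 and 306 in coMO and 378 and 402 in uninjected embryos (log2 -2.48 ± 0.19, SE; limma adjusted p = 6.68e-10). The quinone reductase gene nqo1 stood at log2 -1.23. The selenium carrier selenop fell from 6941 and 6535 in uninjected embryos to 1483 and 1318, with 5016 and 5875 in coMO embryos. Thioredoxin reductase txnrd3 (log2 -2.14), the glutathione transferases gstt1a (-2.10), gstt1b (-1.98), gstr (-1.85), mgst3a (-0.99) and gsto2 (-0.97), catalase cat (-1.98), the glutathione peroxidase gpx1a (-1.46) and the mitochondrial superoxide dismutase sod2 (-1.28) fell. The peroxiredoxin prdx1 (1.1) and the autophagy receptor sqstm1 (0.70) rose. The calls for mgst3a (adjusted p = 0.176) and gsto2 (0.193) ended with the poly-A scaling. Several of these enzymes are abundant in liver, whose marker genes also fell, 20 of 23 tested, and the part of the liver in this result was not tested.

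In the hypoxia and glycolysis list 5 members rose, 7 fell and 1, hif1an, did not pass (log2 0.34, adjusted p = 0.0861, limma). The genes that rose were igfbp1a, an insulin-like growth factor binding protein (log2 1.97), the glycolytic regulator pfkfb3 (1.69), the vessel growth factor vegfaa (1.56), the collagen hydroxylase p4ha1b (1.32) and the hexokinase hk2 (0.74). vegfaa had 473 and 485 in ERbeta2 MO, 158 and 169.7 in coMO and 149 and 156 in uninjected embryos. The glycolytic enzyme genes eno1b (log2 -2.21), tpi1a (-2.18), ldha (-1.69), aldocb (-1.47), gapdhs (-0.92) and pgam1a (-0.91) fell, as did the pyruvate dehydrogenase kinase gene pdk2b (-1.32). With the poly-A scaling 6 passed as higher and 5 as lower. The glucocorticoid list was split too, 5 higher and 5 lower of 10, with socs3b (log2 2.60) and fkbp5 (1.3) higher and the liver enzyme gene tat (-2.36) and the glutamine synthetase gene glula (-1.68) lower.

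In the inflammation and innate immunity list 13 of 19 members rose and 6 fell, with a median log2 of 1.08. Of all named genes 54.2% were called higher, at a median log2 of 0.62. Besides the matrix enzymes, the cytokine signalling inhibitor socs3b had 1317 and 1485 in ERbeta2 MO against 234 and 203 in uninjected and 209 and 214 in coMO embryos. The interferon regulatory factor irf7 stood at log2 1.98, stat3, a transducer of cytokine signals, at 1.46, and the prostaglandin synthase ptgs2a at 1.05. The complement gene c6.2 rose (log2 2.99) while c3a.6 and the complement factor D gene cfd (-2.12) fell. The lysozyme gene lyz, a marker of myeloid cells, fell (log2 -1.28), as did socs1a (-0.60). With the poly-A scaling 3 of the 6 still passed as lower. The call for cfb (log2 0.49, adjusted p = 0.0147, limma) ended without ERbeta2 MO replicate 1 (0.0641), ERbeta2 MO replicate 2 (0.0770) or uninjected replicate 1 (0.167) and with quantile normalization (0.0895).

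Against coMO the stress lists gave these counts, with arrays shared between the comparisons: 9 higher and 3 lower of 12 heat shock genes, 6 and 7 of 13 in the unfolded protein list, 2 and 13 of 15 in the oxidative stress list and 13 and 6 of 19 in the inflammation list. The p53 list gave 4 higher and 1 lower of 5, and the hypoxia list 5 and 7 of 13. Counts were 5 and 5 of 10 in the glucocorticoid list and 1 and 2 of 4 in the apoptosis list. The immediate early list gave 8 and 7 of 16, where fosab was higher than in coMO on its brightest probe set but not on all of them.

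A stepwise order, with both uninjected signals below both coMO signals and these below both ERbeta2 MO signals, or the reverse, was met by 20 of the 100 stress genes tested. The order rose for 8 and fell for 12. Such an order is not particular to stress genes: it held for 6.71% of all 9302 probe sets in the rising and 6.29% in the falling direction. Among probe sets called higher in ERbeta2 MO it held for 20.2%, among named genes called higher for 21.5%, and for 17.4% of stress genes called higher. Among probe sets called lower it held for 21.8%, among named genes called lower for 25.4%, and for 23.5% of stress genes called lower. The stress genes are named genes, so the shares of named genes are the like ones. As deposited, the lists differed in the falling direction. The lower genes in this order were 7 of 13 (53.8%) in the oxidative stress list, 4 of 7 (57.1%) in the immediate early list and 1 of 3 (33.3%) in the apoptosis list. In the other stress lists there were 0. With the poly-A scaling 6 oxidative stress genes and 1 immediate early gene were in falling order. So were 4 unfolded protein, 3 hypoxia and 2 inflammation genes, where 53.7% of all named genes called lower were. Scaling to the hybridization controls put 2 hypoxia genes in that order. The contrast between lists therefore depends on scaling. Members of a list were read on the same arrays and are not independent.

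The rising genes were atf4a, atf4b, mdm2, baxa, c6.2, vegfaa, dnaja2a and fkbp5. In the first step coMO lay above uninjected embryos by a log2 of 0.08 for dnaja2a, 0.10 for vegfaa, 0.18 for atf4b, 0.22 for baxa, 0.25 for atf4a, 0.33 for mdm2 and 0.60 for c6.2. None of these 7 passed, with limma adjusted p from 0.171 for c6.2 to 0.943 for vegfaa, and c6.2 had an unadjusted p of 0.00201. fkbp5, a co-chaperone that glucocorticoids induce, had the first step that passed, with 919 and 693 in uninjected, 1273 and 1309 in coMO and 2089.7 and 1880.3 in ERbeta2 MO embryos. Both of its steps passed (log2 0.68, adjusted p = 0.0341, and 0.61, 0.00131, limma).

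The falling genes were nfe2l2a, selenop, gstt1b, cat, gpx1a, mgst3a and gsto2 of the antioxidant list, egr1, klf2b, ier2b and dusp2 of the immediate early list, and diabloa. Catalase, cat, had 1228 and 1608 in uninjected, 1038 and 999.6 in coMO and 378 and 315 in ERbeta2 MO embryos. For diabloa, whose protein frees caspases from their inhibitors, nearly the whole difference lay in the first step: 896 and 863 in uninjected, 457 and 389 in coMO and 376 and 381 in ERbeta2 MO embryos. Its first step passed (log2 -1.03, adjusted p = 0.00208, limma) and its second did not (-0.15, 0.418). Of the 20 genes, 2 had a first step that passed and 19 a second step that passed. Scaling changed the order for most. Under all 4 other scalings only cat, gstt1b, nfe2l2a and selenop kept it, and with the poly-A scaling none of the 8 rising genes did. The spike level was highest in coMO embryos, so the poly-A scaling lowered coMO signals against both other groups. That scaling left 0.781% of all named genes called higher in rising order and put 53.7% of those called lower in falling order.

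**Figure D4:**
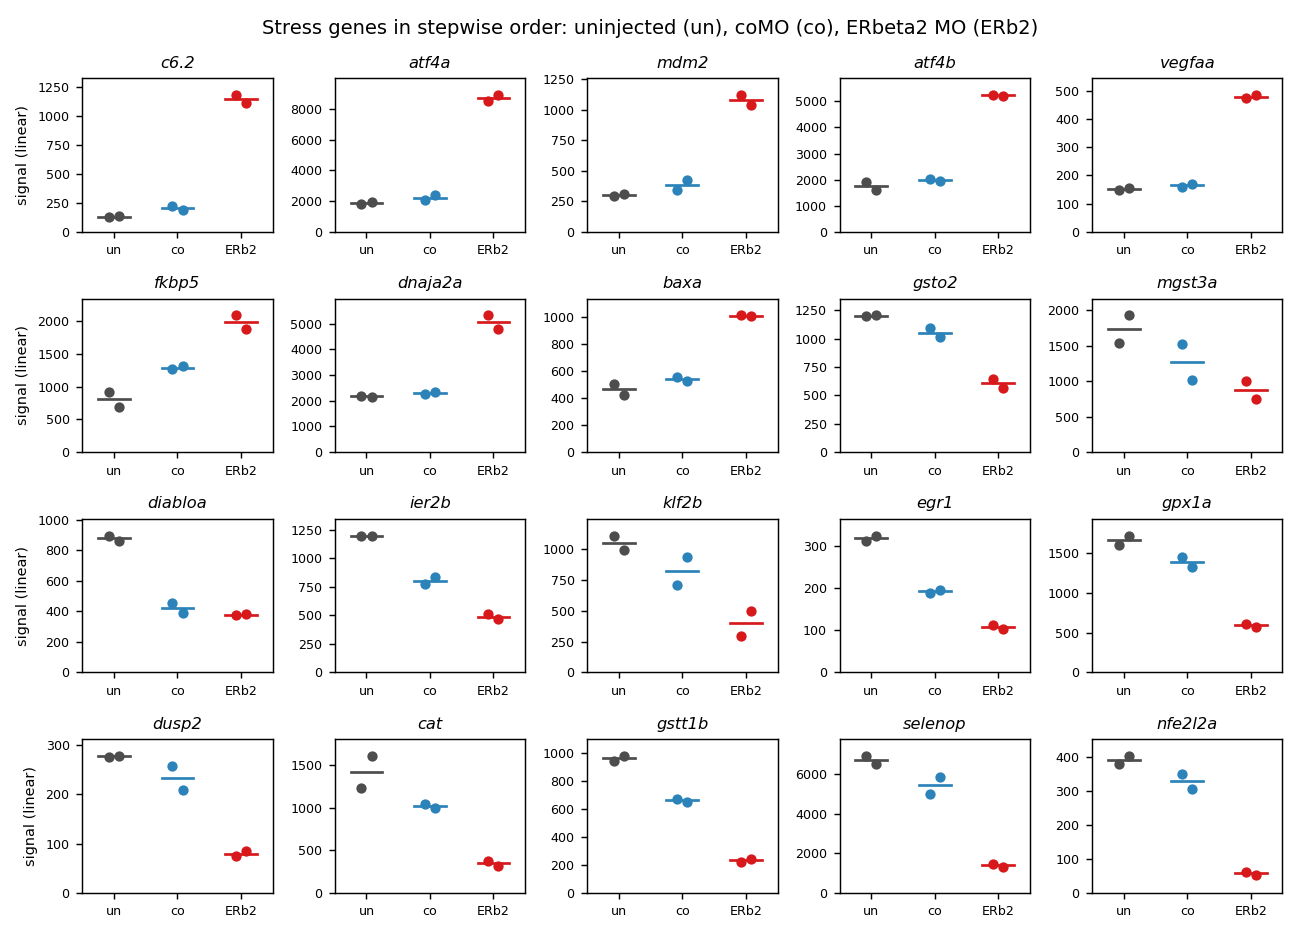
Signal on a linear scale of the 20 stress genes in stepwise order across uninjected (un, grey), coMO (co, blue) and ERbeta2 MO (ERb2, red) embryos. Points are arrays and bars are means of 2. On the log2 scale the second step is the larger for all but diabloa and fkbp5.

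A few named genes were called in the same direction in coMO and in ERbeta2 MO embryos, each against uninjected embryos, which both comparisons share. On the higher side these were hspb8, plppr1, fkbp5 and alcama. The second probe set of hspb8 had 97.5 and 76.6 in uninjected, 277 and 174 in coMO and 614 and 804 in ERbeta2 MO embryos (coMO against uninjected log2 1.2, adjusted p = 0.00875, limma). The brighter probe set of hspb8 did not show the first step (log2 0.16, adjusted p = 0.888). plppr1, a membrane protein gene of neurons, had 409.9 and 450.1, 649 and 813, and 3621 and 2849 in the order uninjected, coMO and ERbeta2 MO. For the cell adhesion gene alcama the same order gave 559 and 542, 1056 on each coMO array, and 1287 and 1521.

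On the lower side were cfp, diabloa, fabp1b.1, lmnb2, ppargc1b and 1 probe set of fosab. For cfp, the complement regulator properdin, the signals were 546 and 470.0 in uninjected, 275 and 208 in coMO and 99.0 and 92.3 in ERbeta2 MO embryos, and ERbeta2 MO lay below coMO (log2 -1.19, adjusted p = 2.55e-05, limma). For the other 5 the difference between ERbeta2 MO and coMO did not pass. That call rests on the adjusted p, while the 95% intervals given here are not adjusted for the number of probe sets, so both can differ. On the log2 scale the interval ran from -0.47 to 0.17 for diabloa and from -0.60 to -0.03 for the fatty acid binding protein gene fabp1b.1. It ran from -0.01 to 0.68 for the nuclear lamina gene lmnb2 and from 0.01 to 0.76 for the transcriptional coactivator gene ppargc1b. For fosab it ran from -0.05 to 0.65. The calls against uninjected embryos ended with the poly-A scaling for fabp1b.1 (adjusted p = 0.104, limma), lmnb2 (0.435), ppargc1b (0.566) and fosab (0.856), and for the last 3 also with the hybridization controls (0.0743, 0.152 and 0.339).

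The list of ribosome assembly and polyamine synthesis holds mostly factors that transcribe, cut and fold ribosomal RNA in the nucleolus. All 69 members tested of the 109 listed rose, at a median log2 of 1.5 and from 0.51 to 2.86. All 69 did so under each of the 4 other scalings. None of these scalings lowered the median difference of all probe sets tested, so they hardly put a higher call at risk. Of all named genes 749 were called higher as deposited and 745 to 768 under them. On the single arrays the median log2 difference from the uninjected mean was 1.51 and 1.49 in ERbeta2 MO and 0.06 and 0.07 in coMO embryos. The nucleolar protein gene npm1a had 9328 and 10203 in ERbeta2 MO, 4026 and 4110.4 in coMO and 3979 and 3814 in uninjected embryos (log2 1.32 ± 0.12, SE; limma adjusted p = 5.46e-09). The pseudouridine synthase gene dkc1 had 1337 and 1405, 384 and 411, and 321 and 329 in the same order. odc1 had 3353 and 3246 in ERbeta2 MO against 455 and 426 in uninjected embryos. The ribosome export factor sdad1 (log2 2.22), the RNA polymerase subunit polr1c (2.23), nolc1 (2.09) and nucleolin, ncl (1.08), rose as well.

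Aminoacyl-tRNA synthetases, which charge tRNAs with their amino acids, rose with them. In this list 18 of 20 members rose, with a median log2 of 1.29, and the amino acid transporters slc38a4 (-1.18) and slc3a2a fell. The isoleucine enzyme gene iars1 had 2094 and 2573 in ERbeta2 MO, 505 and 606 in coMO and 418 and 476 in uninjected embryos (log2 2.34 ± 0.15, SE; limma adjusted p = 4.04e-11). rars1 (2.20) and eprs1 (2.02) followed, and vars1 (0.85) and cars1 (0.95) stood lowest.

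**Figure D5:**
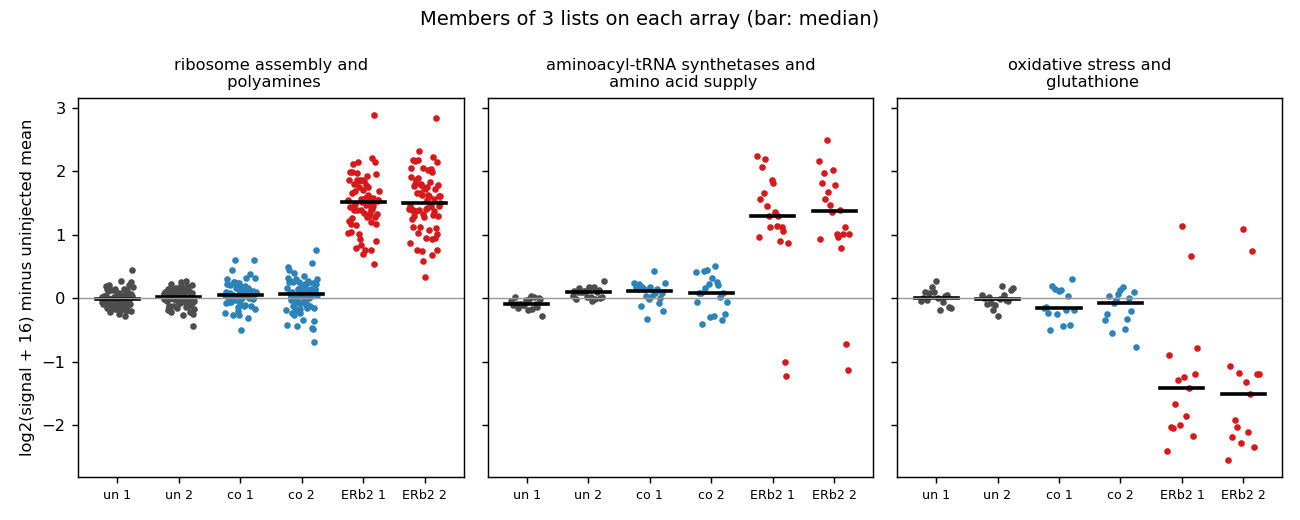
Log2(signal + 16) minus the uninjected mean for each tested member of 3 lists on each array (un uninjected, co coMO, ERb2 ERbeta2 MO; 1 and 2 are replicates), with black bars for medians. Ribosome assembly members centre near 1.5 on both ERbeta2 MO arrays and near 0 on the other 4, and antioxidant members near -1.4 and -1.5.

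Markers of differentiated tissues were mostly lower. All 14 exocrine pancreas genes (median log2 -5.21) and all 18 intestine genes (-2.76) fell, as did 20 of 21 photoreceptor genes (-5.52), 20 of 23 liver genes (-1.87), 19 of 21 neuronal genes (-1.09), 12 of 17 cartilage and connective tissue genes (-1.20) and 11 of 15 epidermis genes (-1.16). The other members rose: nr2e3 (log2 1.33) of photoreceptors, neurod4 (1.36) and elavl3 (0.98) of neurons, and igfbp1a (1.97), cp (1.08) and cfb (0.49) of liver. In the cartilage list fn1b (2.13), fn1a (1.59), prrx1a (1.32), sox9b (1.07) and thbs1b (0.91) rose. In the epidermis list anxa2a (1.91), krt18a.1 (1.78), cdh1 (1.56) and lye (0.97) did. With the poly-A scaling 16 of 18 intestine, 17 of 23 liver, 8 of 21 neuronal, 9 of 17 cartilage and 8 of 15 epidermis genes still passed as lower, and the photoreceptor and pancreas counts stood. In the photoreceptor list 15 of the 20 members that fell were in stepwise order, 75% of them against 25.4% of all named genes called lower. Between coMO and uninjected embryos their median log2 was -0.25, against 0.003 over all named genes, and the coMO mean was the lower for 19 of the 21. In limma 0 of the 21 were called there and 9 had an unadjusted p under 0.05, against 7.89% of all probe sets tested. As in the immediate early list, these genes were read on the same arrays and are not independent observations. The cone phosphodiesterase gene pde6c was in this order, with 6107 and 6081 in uninjected, 4004 and 4412 in coMO and 53.7 and 51.8 in ERbeta2 MO embryos. The count was 13 with quantile normalization, 15 after median centring and 11 after scaling to the hybridization controls, where 24.2%, 27.6% and 21.7% of all named genes called lower were in falling order. With the poly-A scaling it was 17, against 53.7% of all named genes called lower, and exocrine pancreas genes in falling order went from 2 to 12 of 14 and liver genes from 7 to 11 of 23.

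Muscle and early-stage genes were split with more on the higher side, where 54.2% of all named genes also lay. In skeletal muscle 11 of 16 rose, among them the actin-binding repair protein genes xirp1 (log2 2.42) and flncb (2.04) and the intermediate filament desma (1.68), and ckmt2a, a mitochondrial creatine kinase (-3.99), fell with tnni2a.2, myoz1b, pvalb3 and tnni2b.1. Of these falls, those of pvalb3 (adjusted p = 0.0609) and tnni2b.1 (0.0596) ended with the poly-A scaling. Of 13 hatching gland and early-stage genes 10 rose, among them the neural progenitor factor sox11b (1.94) and the Notch ligand dlb (2.05), and agr2, krt5 and gsc fell. In the red blood cell list 9 of 10 rose and uros, an enzyme of heme synthesis, fell (log2 -1.34). Of 95 genes listed for DNA replication and cell division, 11 were named and 6 tested. All 6 fell, at a median log2 of -1.05, and 3 still passed with the poly-A scaling. Of the 6, those with the smallest p as deposited were dhfr (log2 -1.44), stmn1b (-1.15) and dut (-0.96). The call for dut ended with the poly-A scaling (adjusted p = 0.206, limma). Of all named genes tested, 43.9% were called lower.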

How the data were processed

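Signals were measured on Affymetrix zebrafish arrays, 2 per group, from total RNA labelled with biotin, per the labels' protocols. The deposited values are intensities on a linear scale for 15502 probe sets and 115 controls, and the submitters' processing notes name MAS5 as the tool, with no version. The fold column of the authors' deposited tables, a linear ratio per the file headers, was not used. Columns of values with no sample numbered 0.

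Names came from those tables: 2327 of 3140 probe sets had 1 gene, 219 several and 594 none. By Entrez identifier 1669 symbols were updated, by symbol 41 and by older symbol 197, and 420 were kept as in the file. No reference build was needed.

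From the intensities, log2(signal + 16) was taken, the dimmest 40% of probe sets by mean were dropped, and limma 3.58.1 in R 4.3.3 (lmFit, eBayes with a trend) was fitted to all 6 arrays with 3 residual degrees of freedom and no replicate block. Calls were made at a Benjamini-Hochberg adjusted p of 0.05. The fit was tested on simulated data with 200 planted changes between ERbeta2 MO and uninjected embryos. It recovered 25.4% of planted 1.5-fold, 59.7% of 2-fold and 97.0% of 4-fold changes. Of its calls 5.47% were not planted. The simulation held 200 changes among 9302 probe sets, whereas 56.9% were called in the data. The adjusted p depends on that share, so the recovery does not give the share of changes missed here. Lists held 1 probe set a gene, that with the highest mean.

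The members, the lists and the rule for named genes were chosen with earlier results of these data known. The rule took the 12 largest increases and decreases without overlap of arrays, up to 6 each way also called in coMO, up to 6 called members of each stress list and 3 of each other list by smallest p, stress genes in stepwise order, and members called against most of their list. Other members were named after their values were seen. Alternatives are given in the closing section. No sequences were used here. The number of arrays limits the precision.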

Additional observations from a re-analysis of the deposited data

How the results depend on the processing

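Calls between ERbeta2 MO and uninjected embryos numbered 5295. Under the offsets of 1 and 64, no filter, quantile normalization, median centring, eBayes without a trend and a fit of only the 4 arrays, the counts in each direction stayed within 1.5 times. Without a filter the larger side changed, with 2918 higher and 3239 lower. Scaling on the hybridization controls gave 4634 higher and 1145 lower, and scaling on the poly-A spikes 4492 and 697. When the dimmest 60% of probe sets were dropped, 1631 were lower, since fewer were tested. Without 1 array the calls ranged from 4139 to 5403, those higher from 2170 to 2888 and those lower from 1969 to 2515, list members called as before from 340 to 346, and named probe sets called as before from 126 to 128. Stress genes in stepwise order then ranged from 20 to 42: without coMO replicate 1 they numbered 33, without coMO replicate 2 39, without uninjected replicate 1 42 and without uninjected replicate 2 32, since fewer arrays had to be in order. Same-numbered replicates share only a number: their deviations correlated at 0.02, 0.01 and 0.12, and the fit with the replicate number as a block called 5498. It kept all 128 named probe sets. No named probe set reversed in any alternative. With the poly-A scaling 11 of 128 lost their call, and with the hybridization controls 3, fosab, lmnb2 and ppargc1b. With the stricter filter fewer list members were tested, so that 9 of the 18 lower intestine genes and 8 of the 13 higher inflammation genes were called. The fosab probe set at log2 -0.62 lost its call without ERbeta2 MO replicate 2 (adjusted p = 0.0615, limma) and without uninjected replicate 2 (0.0722). Signals near the offset limit the size of the largest changes.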
